A study of Homo sapiens with 20 samples.

Results

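The 6 shelterin genes TERF1, TERF2, TERF2IP, TINF2, ACD and POT1, together with ATRX, RTEL1, TERT and ZBTB48, were followed as a set of 10 telomere maintenance genes among the 43366 genes of the count table. They were picked by name, 9 under their own symbol and ZBTB48 through its alias TZAP. Of the 10, 9 passed edgeR's filter on low counts, the exception being TERT. The question was whether telomere genes differ in cells without ZBTB48, a zinc finger protein that binds telomeric repeats, and whether they respond to IFNγ, the cytokine used in the study.

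RNA-seq was run on 20 polyA libraries of U2OS, an osteosarcoma cell line, from 5 WT clones and 5 clones labelled ZBTB48 KO. Each clone gave 1 untreated library and 1 library after 24 h with 250 U/ml IFNγ, so that each of the 4 groups held 5 libraries. All groups share the U2OS background, and each library stands for 1 clone, so that differences between clones other than the ZBTB48 genotype are part of every WT and KO comparison. Total counts ranged from 46652288 to 72952859 per library, and 3 counts, taken as the detection floor, came to between 0.0409 and 0.0608 CPM (counts scaled to the library size).

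Telomeres are the repeat-covered ends of chromosomes, and shelterin is the complex that coats them and keeps the repair machinery from treating the ends as breaks. TERF1 and TERF2 bind the double-stranded repeats, TERF2IP rides on TERF2, TINF2 links both to ACD, and ACD carries POT1, which binds the single-stranded overhang. Most tumours keep their telomeres long with telomerase, whose catalytic subunit is TERT, whereas U2OS is a well-known line that uses recombination between telomeres instead (alternative lengthening of telomeres, ALT). ATRX is a chromatin remodeller that is often lost at the protein level in ALT tumours, RTEL1 is a helicase that unwinds telomeric loops, and ZBTB48 (TZAP) has been described as a trimming factor of long telomeres as well as a transcription factor.

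The labels were checked first. MTFP1, a gene known to depend on ZBTB48, lay between 27.1 and 52.1 CPM in the 10 WT libraries and between 0.222 and 0.939 CPM in the 10 libraries labelled KO. Its log2 fold change (KO label over WT) was -6.00 in untreated and -6.42 in IFNγ-treated libraries, with edgeR adjusted p = 1.735e-05 and 1.125e-05. The ZBTB48 mRNA itself was low in 4 of the 5 clones labelled KO but not in KO replicate 3. MTFP1 in that replicate was at 0.939 CPM untreated and 0.287 CPM after IFNγ, below every WT library. The ZBTB48 levels are given further below, and the groups are called by their labels throughout. The treated and untreated libraries labelled KO replicates 4 and 5 did not deviate from their groups together (r = -0.02 and 0.05), while those of the other 8 clones did (r from 0.60 to 0.80, across 21045 genes, which are not independent replicates). For POT1, ATRX, ACD, RTEL1 and ZBTB48, the response to IFNγ under the KO label is given with and without replicates 4 and 5. Of the markers of a mesenchymal bone tumour line, RUNX2, SPARC, COL1A1 and VIM were expressed in every library while COL1A2 stayed below 0.956 CPM. CDKN2A had at most 1 count, and the epithelial marker EPCAM reached 12.6 CPM in 1 library.

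Promoter sequences are shown for 3 shelterin genes, POT1 and ACD because they stood highest above the untreated level among the shelterin genes after IFNγ in WT clones, and TINF2 because it had the largest shelterin difference between KO and WT labels. They were picked after these values were seen. Each run is the 250 bases before the RefSeq start site (GRCh38.p14, minus strand, written 5′ to 3′), at chr7:124929826-124930075 for POT1, chr16:67660261-67660510 for ACD and chr14:24242675-24242924 for TINF2. Capitals mark the GC box GGGCGG or its reverse complement, a motif bound by Sp1-like factors.
POT1: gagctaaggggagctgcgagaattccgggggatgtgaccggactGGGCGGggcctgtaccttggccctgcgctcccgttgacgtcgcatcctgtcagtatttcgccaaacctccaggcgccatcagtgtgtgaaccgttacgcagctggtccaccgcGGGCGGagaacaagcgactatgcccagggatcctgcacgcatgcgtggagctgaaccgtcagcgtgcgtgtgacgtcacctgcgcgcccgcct
TINF2: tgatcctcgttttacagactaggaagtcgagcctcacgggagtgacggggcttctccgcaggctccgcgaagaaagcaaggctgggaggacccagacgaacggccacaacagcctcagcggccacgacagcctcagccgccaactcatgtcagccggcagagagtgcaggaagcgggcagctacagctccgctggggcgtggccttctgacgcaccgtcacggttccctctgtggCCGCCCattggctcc
ACD: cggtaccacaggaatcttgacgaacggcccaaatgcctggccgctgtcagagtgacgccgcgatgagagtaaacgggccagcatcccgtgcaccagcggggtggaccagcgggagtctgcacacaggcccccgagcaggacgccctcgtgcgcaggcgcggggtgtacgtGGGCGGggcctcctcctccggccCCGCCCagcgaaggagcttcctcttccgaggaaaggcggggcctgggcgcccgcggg

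RefSeq promoter windows of 300 bases, from 250 before to 50 after the start, were matched for 7 of the 10 genes and not for TERF1, TERF2 and ATRX. These 7 genes gave 9 windows, and matches on both strands are given for 3 motifs. The telomeric repeat TTAGGG and an interferon response motif of 2 GAAA sites 2 bases apart occurred in 0 of the 9 windows, against 9.05% and 3.57% of all 35116 windows. GGGCGG occurred in 8 of the 9 windows, against 45% of all windows, and was missing from 1 of the 2 RTEL1 windows. The 2 TINF2 windows overlap and hold the same GGGCGG sites, so the 9 windows are not independent. The window of MTFP1 had 0 matches to each of these 3 motifs. These are matches of letters in a short window and say nothing of binding.

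Per length, the shelterin genes and ATRX were moderately to well expressed. TERT was at the bottom, next to RTEL1 when RTEL1 is taken over its full length, most of which is shared with another gene. ACD had the highest mean over the 20 libraries, 24.8 ± 3.78 CPM per kilobase (SD), followed by ATRX with 23.9 ± 3.66 and TINF2 with 21.4 ± 3.51. Over all 20 libraries these 3 neighbours held no fixed order, since ACD lay above ATRX in 11 and ATRX above TINF2 in 10. Their order went with treatment. In WT clones ACD, ATRX and TINF2 averaged 22.6, 27.2 and 22.5 CPM per kilobase untreated, and 26.8, 21.4 and 24.6 after IFNγ. Under the KO label the means were 23.6, 25.6 and 18.3 untreated, and 26.1, 21.2 and 20.2 after IFNγ. TERF1 (13.9 ± 2.45 CPM per kilobase), TERF2 (12.9 ± 1.10) and TERF2IP (11.0 ± 2.22) formed the next step, again with SDs that overlapped. TINF2 was above TERF1 in 17 libraries. POT1, with 4.96 ± 0.775 CPM per kilobase, was the lowest of the shelterin genes and lay below TERF2IP in all 20 libraries. Its mean stood at the 62.2 percentile of the tested genes, compared with 87.5 for ACD. ZBTB48 averaged 2.53 ± 1.43 CPM per kilobase, a spread set by the KO labels.

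**Figure D1:**
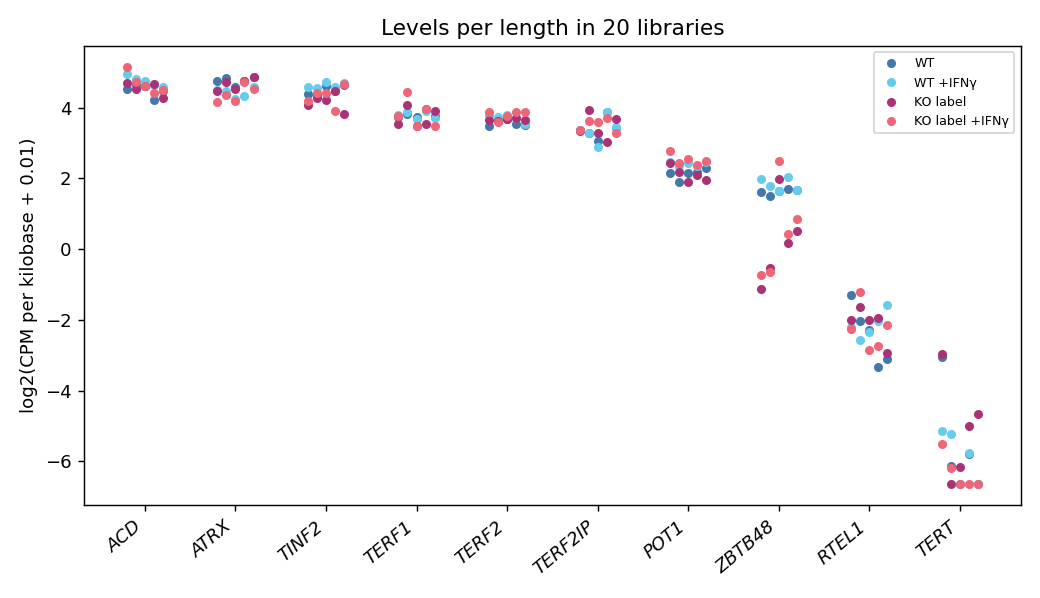
Level of each gene per length in the 20 libraries, as log2(CPM per kilobase + 0.01) on the vertical axis, with points coloured by group and genes ordered by their mean. ACD, ATRX and TINF2 overlap at the top, POT1 is the lowest shelterin gene, and ZBTB48 is split between clones. RTEL1, per its full length, and TERT lie far below.

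RTEL1 had 0.220 ± 0.0898 CPM per kilobase, and between 29 and 149 counts per library. Of its 5197 exonic bases, 4726 (90.9%) lie in exons that the read-through gene RTEL1-TNFRSF6B also uses on the same strand, and this gene had between 0 and 7 counts per library. Per kilobase of the 471 bases not shared, the mean was 2.42 ± 0.991 CPM, so RTEL1 was measured with few reads, and its level is uncertain. How the counting treated reads in shared exons is not given in the sources used here. ACD shares 58 exonic bases (3.80%) with CARMIL2 on the opposite strand, and no other shelterin gene, nor ATRX, TERT or ZBTB48, shared exonic bases with another gene.

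TERT, the catalytic subunit of telomerase, was close to the detection floor. The untreated WT clones had 27, 1, 0, 2 and 0 counts, and the untreated libraries labelled KO had 25, 0, 1, 5 and 6. After IFNγ the counts were 4, 4, 0, 2 and 0 in WT clones and 3, 1, 0, 0 and 0 in the libraries labelled KO. Only 6 of the 20 libraries exceeded 3 counts, and the 2 highest were the untreated replicates numbered 1 of both genotypes, at 0.445 and 0.475 CPM. Because TERT did not pass the filter it has no fold change in any comparison, and its groups overlapped in each of them.

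**Figure D2:**
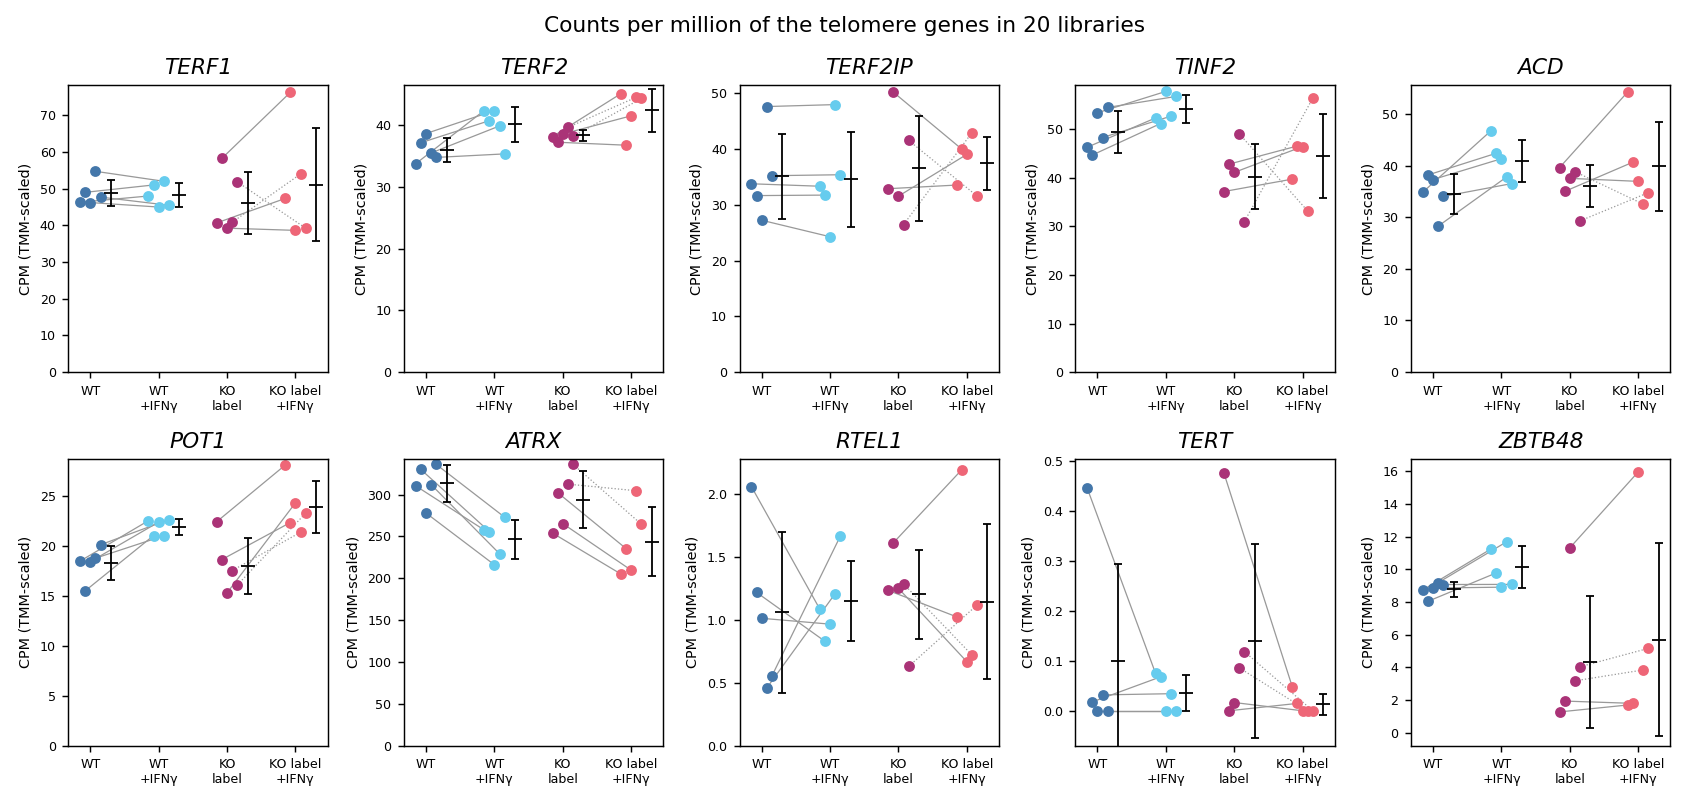
CPM (TMM-scaled, vertical axes) of the 10 genes in the 5 libraries of each group. Lines join the untreated and treated library of a clone (dotted for KO replicates 4 and 5), and black bars are the group mean ± SD. ATRX lines slope down and POT1 lines slope up in both genotypes, and KO replicate 3 stands apart for ZBTB48.

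ZBTB48, the targeted gene (chr1:6579994-6589280, GRCh38), had 8.74, 8.05, 8.86, 9.19 and 9.08 CPM in the untreated WT clones. The untreated libraries labelled KO had 1.27, 1.94, 11.3, 3.18 and 4.04 CPM, so that 4 lay below every WT clone and replicate 3 above all of them. After IFNγ the WT clones had 11.3, 9.79, 8.91, 11.7 and 9.08 CPM and the libraries labelled KO 1.70, 1.80, 16.0, 3.84 and 5.17, with replicate 3 again on top. With all libraries the log2 fold change (KO label over WT) was -1.02 ± 0.482 (SE) untreated and -0.82 ± 0.531 after IFNγ, with edgeR adjusted p = 0.981 and 0.996. Without KO replicate 3 it was -1.76 ± 0.318 and -1.67 ± 0.351 (edgeR adjusted p = 0.493 and 0.640).

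None of the 9 tested genes, ZBTB48 included, passed the tests between KO and WT labels. In untreated libraries, 0 of the 9 tested genes had an edgeR adjusted p under 0.01 with more than a 2-fold change, the cut-offs of the study, against 0.0154% of all 19505 tested genes. Likewise, 0 of 9 passed an adjusted p under 0.05 at any fold (0.0308% of all genes), 1 of 9 had an unadjusted p under 0.05 (4.79% of all genes), and DESeq2 called 0. After IFNγ the counts were 0 of 9 by both rules (0.0155% and 0.0206% of all genes) and 0 of 9 by unadjusted p (4.35% of all genes), and DESeq2 again called 0. These counts hold few calls over the whole table, so they say little about telomere genes in particular, and the intervals of the single genes carry more.

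TINF2, the hub of shelterin (chr14:24239640-24242674), was the gene with the unadjusted p under 0.05. The untreated WT clones had 46.3, 44.7, 53.4, 48.3 and 54.5 CPM, and the untreated libraries labelled KO had 37.2, 42.8, 41.1, 49.1 and 31.0. Of the 5 KO labels, 4 lay below every WT clone, and KO replicate 4 was inside the WT range. The log2 fold change was -0.30 (95% interval -0.58 to -0.02, edgeR adjusted p = 0.981), and the exact permutation test on log2 CPM gave two-sided p = 0.0397 for this gene alone. After IFNγ the WT clones had 52.4, 51.2, 57.8, 52.7 and 56.8 CPM and the libraries labelled KO 39.8, 46.6, 46.5, 33.2 and 56.4, the last of them within the WT range. The log2 fold change was then -0.27 (95% interval -0.59 to 0.05, edgeR adjusted p = 0.996, exact permutation p = 0.0317). Both values are from the same clones, and neither passes when all genes are counted. Without KO replicate 3 the log2 fold changes were -0.31 and -0.28.

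TERF1, TERF2 and TERF2IP had smaller log2 fold changes between labels than TINF2. TERF1 had 46.3, 49.0, 46.2, 54.7 and 47.7 CPM in the untreated WT clones and 40.7, 58.3, 39.2, 40.8 and 51.8 CPM in the untreated libraries labelled KO. The KO labels were more spread, and the medians were 47.7 CPM for WT and 40.8 CPM for KO (log2 fold change -0.09, 95% interval -0.37 to 0.20). After IFNγ TERF1 lay between 45.0 and 52.0 CPM in WT clones and between 38.6 and 76.2 CPM in the libraries labelled KO, where replicate 2 was the highest, as it was untreated. TERF2 (chr16:69355567-69386007) had 33.8, 37.2, 38.7, 35.5 and 34.8 CPM in the untreated WT clones against 38.2, 37.3, 38.6, 39.7 and 38.2 CPM under the KO label. Its log2 fold change was 0.09 (95% interval -0.10 to 0.27, exact permutation p = 0.0556). TERF2IP (chr16:75647773-75657432), the gene of the TERF2 partner RAP1, had 33.8, 31.6, 27.2, 47.6 and 35.2 CPM against 32.9, 50.2, 31.5, 26.4 and 41.5 CPM. Its ranges overlapped almost entirely, and its log2 fold change was 0.05 (95% interval -0.38 to 0.48).

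The arm that reaches the single strand also had small log2 fold changes between labels in untreated libraries. ACD (chr16:67657512-67660260) had 34.9, 38.2, 37.3, 28.3 and 34.0 CPM in the untreated WT clones and 39.6, 35.0, 37.5, 38.8 and 29.3 CPM in the untreated libraries labelled KO, with a log2 fold change of 0.06 (95% interval -0.20 to 0.31). POT1 (chr7:124822386-124929825) had 18.5, 15.5, 18.4, 18.8 and 20.1 CPM against 22.4, 18.7, 15.3, 17.5 and 16.1 CPM, with a log2 fold change of -0.03 (95% interval -0.33 to 0.27). For ATRX (X chromosome) the untreated WT clones had 310.3, 329.9, 277.9, 311.8 and 335.9 CPM and the libraries labelled KO 254.0, 302.3, 265.3, 312.4 and 336.1. The ATRX groups overlapped, with a log2 fold change of -0.10 (95% interval -0.33 to 0.14). U2OS is known to lack ATRX protein, and these counts speak of the transcript only.

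Over the 6 shelterin genes and ATRX, the 95% intervals of the KO label over WT fold change ran from 0.667-fold (TINF2) to 1.39-fold (TERF2IP) in untreated libraries and from 0.664-fold (TINF2) to 1.42-fold (TERF2IP) after IFNγ. RTEL1 was less precise, with log2 fold changes of 0.17 (95% interval -0.74 to 1.09) and 0.00 (95% interval -0.80 to 0.81). In both comparisons the WT and KO labels overlapped for every one of the 10 genes. Of all tested genes, only 0.959% in untreated and 0.825% in IFNγ-treated libraries had groups that did not overlap, so this says little about the set.

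**Figure D3:**
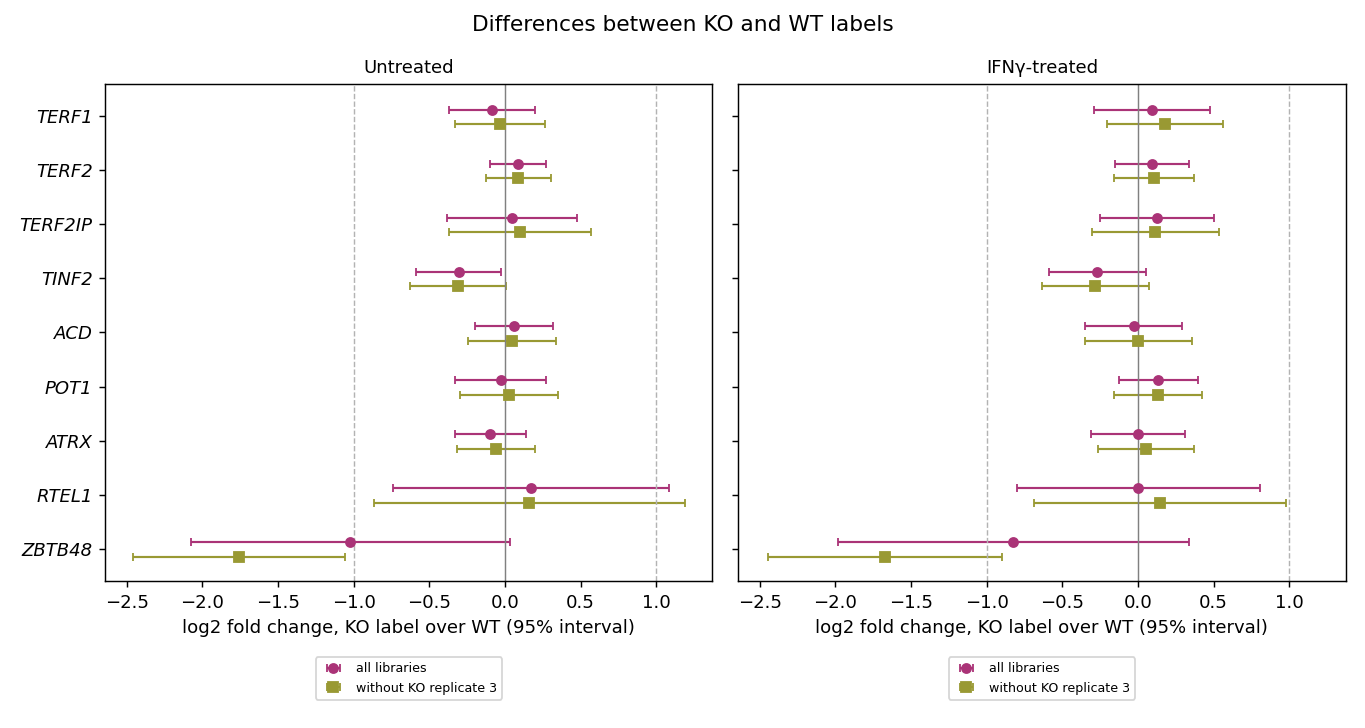
Log2 fold change of KO label over WT (horizontal axis) with 95% intervals for the 9 tested genes, in untreated (left) and IFNγ-treated libraries (right), with all libraries (circles) and without KO replicate 3 (squares). Dashed lines mark 2-fold; shelterin genes and ATRX lie near 0 with TINF2 lowest, and ZBTB48 moves from -1.02 to -1.76 in untreated libraries when KO replicate 3 is left out.

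IFNγ lowered ATRX in WT clones, and POT1 and ACD stood above their untreated level there. In bulk libraries, fewer cells with a transcript and less of it per cell cannot be told apart. In the fit without a clone term, 1 of the 9 tested genes passed an edgeR adjusted p under 0.05 (11.3% of all tested genes). By the 2-fold cut-offs that the study used between WT and KO, 0 of 9 passed (3% of all genes). For IFNγ against untreated the study marked genes at a larger fold change. With the clone as a block, as the labels pair the libraries, 4 of the 9 passed 0.05. This is close to the share of all 19522 genes (47%), so the count says little about telomere genes in particular.

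After IFNγ, ATRX was at 257.7, 255.8, 216.1, 229.3 and 272.9 CPM in WT clones, each below every untreated WT clone. It fell by 0.36 on the log2 scale (95% interval -0.59 to -0.13, edgeR adjusted p = 0.0477; with the clone block adjusted p = 5.649e-05). The drop was seen in 5 of 5 clones and ranged from -0.27 to -0.44 (log2), and the exact permutation test gave the smallest p possible with 5 against 5 libraries, p = 0.00794. Without the block the call was close to the threshold, and it was lost when any 1 of the WT clones was left out (adjusted p from 0.0720 to 0.158).

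POT1 was at 22.5, 21.1, 22.4, 21.0 and 22.7 CPM in the IFNγ-treated WT clones, each above every untreated WT clone. The log2 fold change was 0.25 (95% interval 0.01 to 0.49, edgeR adjusted p = 0.176) and with the clone block 0.25 (95% interval 0.11 to 0.40, edgeR adjusted p = 0.00829), higher in 5 of 5 clones. ATRX and POT1 were the 2 of 10 genes whose WT groups did not overlap between treatments, compared with 11.1% of all tested genes (7.27% higher and 3.88% lower). ACD, the partner of POT1, was at 46.8, 42.4, 41.3, 37.8 and 36.5 CPM, which overlapped the untreated range but was higher in 5 of 5 clones. Its log2 fold change was 0.23 (edgeR adjusted p = 0.196; with the clone block 0.24, adjusted p = 0.00690).

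TERF2 went from a mean of 36.0 ± 1.94 CPM to 40.2 ± 2.89 CPM (SD, n = 5) in WT clones, with a log2 fold change of 0.14 (edgeR adjusted p = 0.338; with the clone block adjusted p = 0.0455). TINF2 was at 49.5 ± 4.33 and 54.2 ± 2.93 CPM (SD, n = 5), and although it was higher in 5 of 5 clones it missed the threshold in both fits (log2 fold change 0.12, edgeR adjusted p = 0.503 and, with the block, 0.0558). TERF1 and TERF2IP gave log2 fold changes of -0.03 and -0.04. Their values belonged to the clone rather than the treatment, since 88.4% and 98.3% of their sum of squares over the 10 WT libraries lay between clones. For POT1 and ATRX the larger part lay between treatments (66.9% and 71.4%). WT replicate 4, for instance, had the most TERF2IP both untreated (47.6 CPM) and treated (48.0 CPM), and WT replicate 3 the least (27.2 and 24.3 CPM).

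The libraries labelled KO had the same directions for ATRX and POT1. There 0 of the 9 tested genes passed an edgeR adjusted p under 0.05 (7.88% of all tested genes) or the cut-offs with a 2-fold change (1.96%). By unadjusted p, 1 of 9 was under 0.05 (23.5% of all genes). With DESeq2, POT1 passed an adjusted p under 0.05 (DESeq2 adjusted p = 0.0389) but not a 2-fold change. The share of all genes that DESeq2 passed at that cut-off is not given here. POT1 was at 28.1, 22.4, 24.3, 21.4 and 23.3 CPM after IFNγ, of which 2, replicates 2 and 4, did not exceed the highest untreated value of 22.4 CPM. It was higher than the untreated library of the same number in 5 of 5 pairs, with a log2 fold change of 0.40 (95% interval 0.10 to 0.71, edgeR adjusted p = 0.103; with the block adjusted p = 0.0289). Leaving out replicates 4 and 5 with the block kept gave 0.39 (edgeR adjusted p = 0.0957). ATRX was at 205.1, 235.5, 209.7, 304.5 and 264.5 CPM, with the untreated and treated ranges overlapping. In the libraries labelled KO, 0 of the 10 genes had treatments that did not overlap. Among all tested genes the share was 9.46% (6.05% higher and 3.41% lower), so a count of 0 in 10 says little. The drop was again seen in 5 of 5 pairs, with a log2 fold change of -0.27 (edgeR adjusted p = 0.259; with the block -0.28, adjusted p = 0.0475). Without replicates 4 and 5 and with the block it was -0.36 (edgeR adjusted p = 0.0457). In these blocked fits 21% of all genes with every pair, and 13.9% without replicates 4 and 5, passed 0.05.

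ACD was at 54.3, 40.7, 36.9, 32.5 and 34.8 CPM in the treated libraries labelled KO, higher in 3 of 5 pairs, with a log2 fold change of 0.14 (edgeR adjusted p = 0.635). With the block and without replicates 4 and 5 it was 0.19 (95% interval -0.10 to 0.49, edgeR adjusted p = 0.331). TINF2 in the libraries labelled KO replicates 4 and 5 went from 49.1 to 33.2 CPM and from 31.0 to 56.4 CPM, opposite moves in the numbers whose libraries do not pair. In the other 3 pairs TINF2 differed by 0.10 to 0.18 (log2). RTEL1 had log2 fold changes of 0.11 (95% interval -0.78 to 1.00) in WT clones and -0.07 (95% interval -0.90 to 0.76) in the libraries labelled KO, where the block without replicates 4 and 5 gave -0.24 (95% interval -1.04 to 0.57). ZBTB48 itself gave 0.19 in WT clones (95% interval -0.10 to 0.49, edgeR adjusted p = 0.423) and, with the clone block in the libraries labelled KO, 0.29 (95% interval -0.09 to 0.66). Without replicates 4 and 5 the blocked ZBTB48 value was 0.26 (95% interval -0.23 to 0.74).

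**Figure D4:**
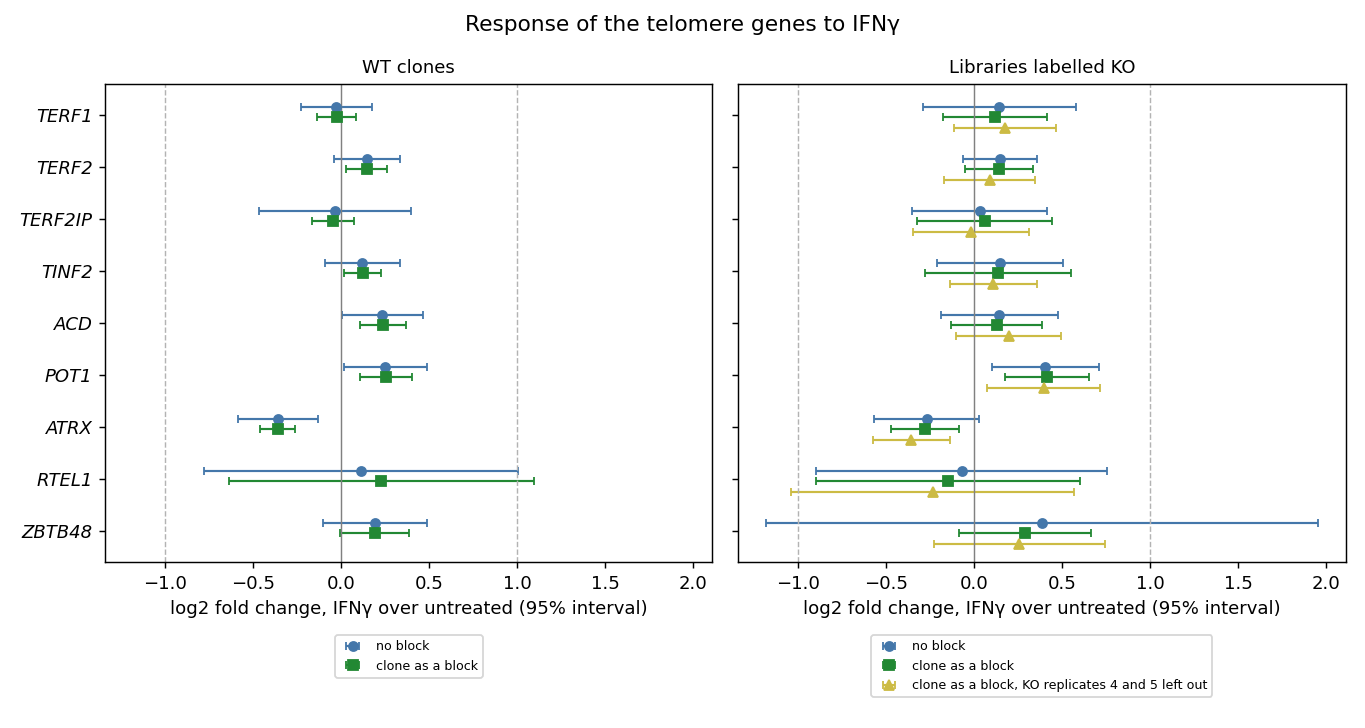
Log2 fold change of IFNγ over untreated (horizontal axis) with 95% intervals for the 9 tested genes in WT clones (left) and libraries labelled KO (right), without a clone term (circles), with the clone as a block (squares) and, on the right, also without KO replicates 4 and 5 (triangles). Dashed lines mark 2-fold; ATRX lies below 0 and POT1 above 0 in both panels, and no estimate reaches 2-fold.

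The response to IFNγ was not found to differ between labels for any gene of the set. In the test of the difference itself over all 20 libraries, 0 of the 9 tested genes passed an edgeR adjusted p under 0.05 (0% of all 21052 tested genes). By unadjusted p, 0 of 9 were under 0.05 (0.409% of all genes), and DESeq2 called 0. This fit treated the libraries of a clone as independent. The share of all genes under the unadjusted cut-off was far below the cut-off itself, so these counts of 0 say little. Over the 6 shelterin genes and ATRX the difference, KO label minus WT, lay between -0.08 and 0.19 (log2), and its 95% intervals ran from 0.717-fold (TERF2IP) to 1.57-fold (TERF1). For POT1 it was 0.17 (95% interval -0.18 to 0.52) and for ATRX 0.10 (95% interval -0.24 to 0.45). With the clone block these intervals were -0.08 to 0.43 and -0.09 to 0.29, and without KO replicates 4 and 5 they were -0.14 to 0.43 and -0.16 to 0.18.

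Other genes of telomere biology were taken from 6 lists of 79 symbols, of which 76 were tested. TCAB1 is an alias of WRAP53 and has no row. TEN1 and TERC, the telomerase RNA, did not pass the filter, each with 0 counts in all 20 libraries, which were made from polyA RNA. Why TEN1 had 0 counts was not tested. Between KO and WT labels, 0 of the 76 passed an edgeR adjusted p under 0.05, untreated or after IFNγ (0.0308% and 0.0206% of all tested genes). In each, 2 of the 76 had an unadjusted p under 0.05 (4.79% and 4.35% of all tested genes), and DESeq2 called 0. The largest untreated differences were in the helicases FANCM (log2 fold change 0.36, 95% interval -0.03 to 0.74) and BLM (0.35, -0.09 to 0.79). After IFNγ, ZBTB10, another zinc finger protein that binds telomeric repeats, had a log2 fold change of 0.40 (95% interval 0.06 to 0.74). The median log2 fold change of the 76 was 0.08 untreated and 0.07 after IFNγ, beside 0.00 and 0.02 for all tested genes.

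IFNγ in WT clones raised 14 of the 76 and lowered 2 at an edgeR adjusted p under 0.05, where 6.98% and 4.3% of all tested genes did, and 3 of the 76 also passed the 2-fold rule, where 3% of all genes did. Those 3 were SAMHD1, a dNTPase with a role in end resection, SP100, a resident of PML bodies, and NBN, a subunit of the break sensor complex MRN. SAMHD1 went from 29.8 ± 4.80 to 210.3 ± 43.9 CPM (SD, n = 5), a log2 fold change of 2.81 (edgeR adjusted p = 3.543e-06). SP100 went from 30.3 ± 5.33 to 108.6 ± 15.2 CPM (log2 fold change 1.83, edgeR adjusted p = 1.484e-05), and NBN from 76.4 ± 12.7 to 168.8 ± 25.3 CPM (1.13, adjusted p = 0.000645). SAMHD1, SP100 and PML are well known as interferon-stimulated genes outside telomere biology. PML, which builds the nuclear bodies that gather telomeres in ALT cells, rose by 1.06 (edgeR adjusted p = 0.0176). Among the telomerase particle genes, DKC1 and its assembly factor NAF1 rose by 0.65 and 0.66 (edgeR adjusted p = 0.00227 and 0.00775), while WRAP53, which guides the particle to Cajal bodies, fell by 0.54 (adjusted p = 0.0287). The recombination genes RAD51AP1 and BRCA2 rose by 0.58 and 0.45 (edgeR adjusted p = 0.00239 and 0.00638). With the clone block 39 of the 76 were higher and 10 lower, the same 16 among them, where 47% of all genes passed. Leaving out 1 clone left between 7 and 12 list genes (8, 7 and 7 without replicates 1, 2 and 4), where between 5.59% and 8.71% of all genes passed. SAMHD1, SP100, NBN, DKC1, NAF1, RAD51AP1 and BRCA2 passed whichever clone was left out, whereas PML passed in 2 and WRAP53 in 1 of the 5 fits.

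In the libraries labelled KO, IFNγ raised 9 of the 76 and lowered 1 at an edgeR adjusted p under 0.05, where 5.41% and 2.47% of all tested genes did. SAMHD1 (log2 fold change 2.64), SP100 (1.83) and NBN (1.25) again passed the 2-fold rule (edgeR adjusted p = 0.000204, 0.00259 and 3.868e-05), which 1.96% of all genes passed. BRCA2 (0.57), ZBTB10 (0.53), the SMC5/6 subunit SMC6 (0.59) and the nuclease subunit MUS81 (0.51) rose with edgeR adjusted p between 0.00948 and 0.0318, and WRAP53 fell by 0.66 (adjusted p = 0.0186). Fewer list genes passed without replicate 1, 3, 4 or 5 (4, 5, 3 and 4), where 3.54%, 3.07%, 2.65% and 3.41% of all genes passed. SAMHD1, SP100 and NBN passed whichever clone was left out, BRCA2 in 3 of the 5 fits, and ZBTB10, SMC6, MUS81 and WRAP53 in 1 each. Without replicates 4 and 5 and with no block, 1 list gene passed, NBN (0.423% of all genes). With the block 22 were higher and 4 lower (21% of all genes), the same 10 among them, and 12 were higher and 5 lower without replicates 4 and 5 (13.9%). Of the list genes past 0.05 with every clone, 8 were the same in both labels, which is 50% of the 16 in WT clones and 80% of the 10 in the libraries labelled KO. Over all genes tested in both labels the shares were close to these, 50.8% of 2167 and 72.5% of 1517. The recombination list had 6 of 24 higher and 0 lower in WT clones, and 5 of 24 higher and 0 lower in the libraries labelled KO. Of all tested genes 6.98% and 5.41% were higher. The medians were 0.27 and 0.29 beside -0.03 for all tested genes in both. Whichever clone was left out, only NBN, RAD51AP1 and BRCA2 of these passed in WT clones, and only NBN in the libraries labelled KO. The end joining and signalling list, with ATM, ATR and the Ku subunits, had 1 of 9 higher in WT clones and 0 of 9 in the libraries labelled KO. The shelterin medians were 0.13 and 0.14. None of the 76 was found to differ between labels in its response at an edgeR adjusted p under 0.05. At an unadjusted p under 0.05 there were 0 as well, where only 0.409% of all genes passed, so these counts say little.

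**Figure D5:**
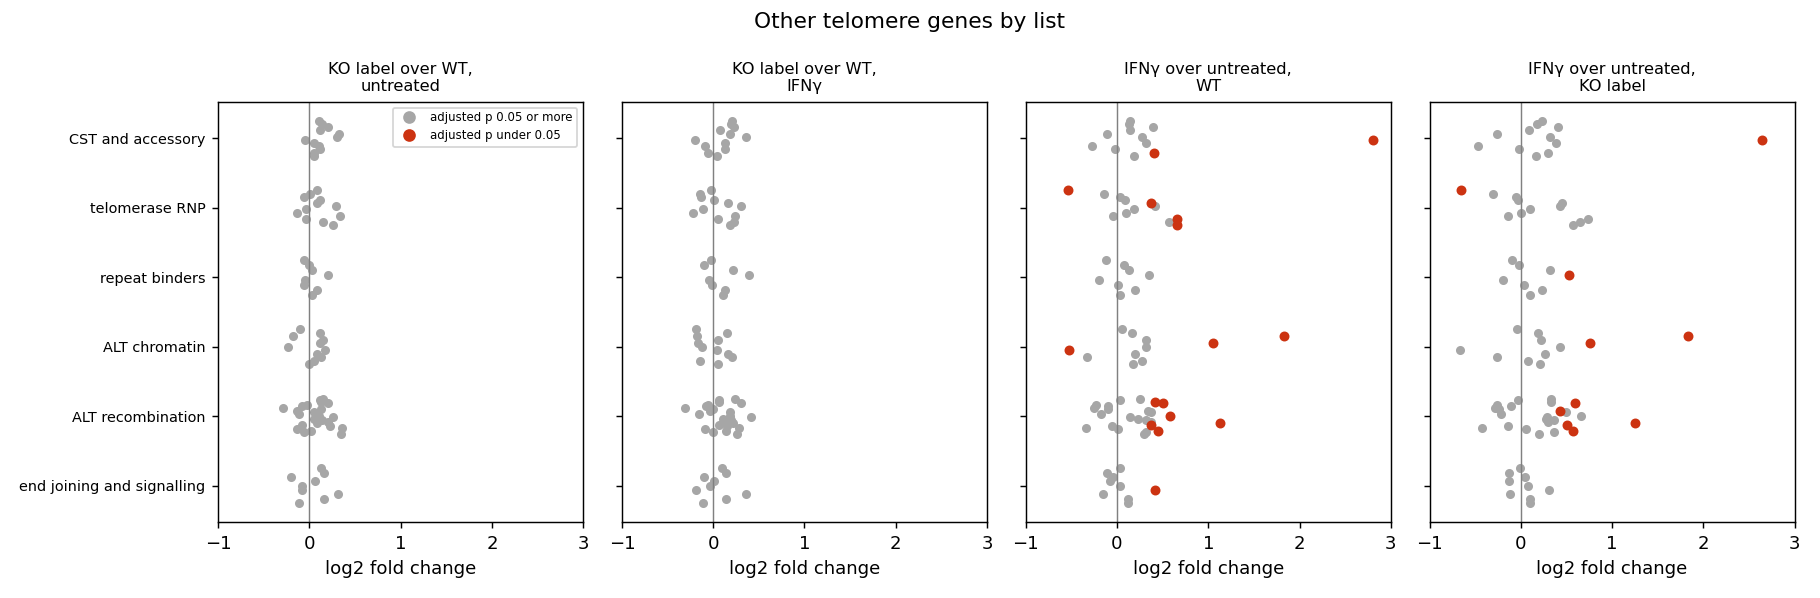
Log2 fold changes (horizontal axes) of the 76 tested genes of 6 telomere lists in 4 comparisons, with 1 point per gene and red points past an adjusted p of 0.05. No red point appears in the 2 panels of KO label over WT, and SAMHD1, SP100 and NBN lie farthest to the right after IFNγ.

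The gene of the whole table whose log2 CPM ran most like each member was sought over the 20 libraries, which share clones and treatments. TINF2 was most like WDR19 (Pearson's r = 0.90), POT1 most like CFAP69 (0.90), ATRX most like UBE2E3 (0.90) and TERF2 most like LOC107986985 (0.89). TERF2IP was closest to MBTPS1 (0.88), ZBTB48 to TIMP1 (0.87), TERF1 to CCND2 (0.86), ACD to ADRM1 (0.84) and RTEL1 to LOC105372706 (0.69). Each is the best of 21036 genes outside the set and is given as a description.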

How the data were processed

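Counts were deposited by the authors as whole-number counts for 43366 RefSeq genes in 20 libraries. Per the paper's methods and the labels, reads of stranded libraries were aligned to GRCh38 with STAR 2.7.9a, restricted to unique mappers and counted with featureCounts 2.4.0, without normalization. The strand setting of the counting is not given in the sources used here. Total counts per library (46652288 to 72952859) limit precision for genes with few counts, and intervals cover the spread between clones. Each comparison of 5 against 5 libraries was fitted with edgeR 4.0.16 in R 4.3.3 (TMM, filterByExpr, robust quasi-likelihood test). DESeq2 1.42.0, with and without shrinkage, was an alternative, since the study named it. P values were adjusted across all tested genes by the Benjamini-Hochberg method. The SE of a log2 fold change is its size over the square root of F. For single members an exact two-sided permutation test of log2(CPM + 0.1) was added, where 252 permutations allow no p under 0.00794. Lengths are the deposited gene lengths. Figures used Python 3.11.15 and matplotlib 3.10.9.

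Groups and clones were taken from the labels. The labels name one clone for both libraries of a number, so the number pairs treated and untreated libraries. Deviations from the group means correlated at r from 0.63 to 0.80 in the WT clones and at 0.65, 0.79, 0.60, -0.02 and 0.05 in KO replicates 1 to 5, where replicates 4 and 5 each matched the other number best (0.59 and 0.67). Numbers of WT and KO clones name different clones. No 2 libraries of a group were alike within sampling noise (lowest chi-square per degree of freedom 67.7). The fitting was tested on simulated data, where the share of false calls at an adjusted p of 0.05 was above that level in both comparisons simulated.

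The genes, lists and comparisons were chosen with earlier results of these data known. The genes named are the 10 members, MTFP1, genes overlapping a member, the single gene most like each member, and list genes past an adjusted p of 0.05 (at most 8 per comparison) or else those with the largest changes. Alternatives were library totals, DESeq2 size factors, no filter, all 20 libraries together, a replicate block, TPM, and leaving out each clone. Single reads, isoforms and protein levels were not analysed here, and a few results are not reported here.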

Additional observations from a re-analysis of the deposited data

Results flagged for a closer look

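Dixon's test was applied to the CPM of each gene in each group of 5 libraries, and 4 of 44 groups held a library that stood apart, where chance gives about 2.2. TERT was at 0.445 CPM in untreated WT replicate 1, while the next library of that group had 0.0318 CPM. In the untreated group labelled KO, replicate 1 had 0.475 CPM of TERT and the next library 0.118 CPM. After IFNγ the same 2 clones had 4 and 3 counts. ZBTB48 was at 11.3 CPM in the untreated library labelled KO replicate 3, where the next had 4.04 CPM, and at 16.0 CPM in the IFNγ-treated library of the same number, where the next had 5.17 CPM.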

How the results depend on the processing

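Without replicate 3, 0 of the 9 genes passed between KO and WT labels, as with each other clone left out. In WT clones the clone block gave 4 members past an adjusted p of 0.05, 49 list genes and 1414 called genes, and in the libraries labelled KO 2, 26 and 721 (1 member and 17 list genes without replicates 4 and 5). Between labels a number names different clones and pairs nothing, and a block on it gave 1 called gene in untreated libraries. The block changed no other call. No filter and all 20 libraries together ended the ATRX call in WT clones (0 members past 0.05; adjusted p = 0.127 and 0.0536), each with 10 list genes, as with library totals. In the libraries labelled KO, DESeq2 with and without shrinkage and all 20 libraries gave 1 member, POT1 (adjusted p = 0.0389, 0.0389 and 0.0308), and the last 16 list genes. Genes called between labels in untreated and treated libraries were 3 and 3, against 5 and 5 with no filter, 13 and 16 with DESeq2, 5 and 6 with shrinkage, and 5 and 6 with all 20 libraries. DESeq2 called 976 genes for IFNγ in WT clones and 825 in the libraries labelled KO (616 shrunken, 642 with all 20 libraries together). Dropping KO replicates 4 and 5 without a block, chosen after seeing the data, left 22 called genes and 1 list gene. With the cut-offs at an adjusted p under 0.05 and any fold, in place of 0.01 and 2-fold, 16 and 10 list genes passed instead of 3 and 3. The cause of these changes was not tested.

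Signs turned for values near 0. For KO label over WT after IFNγ, ATRX was -0.0072 with no filter, -0.0021 with all 20 libraries and -0.013 with the block, and RTEL1 -0.11 with the block. For IFNγ in the libraries labelled KO, TERF2IP was -0.0076 with library totals, -0.021 with the block and -0.046 without it when replicates 4 and 5 were left out. For the difference between responses, TERF2 was -0.012 with no filter and -0.049, and TINF2 -0.0054, with the block without replicates 4 and 5.

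With 1 clone left out at a time, the called genes were 2 to 4 in untreated and 3 to 5 in treated libraries between labels (5 without KO replicate 1). For IFNγ they were 318 to 457 in WT clones (355 and 318 without replicates 1 and 2), with 0 members and 7 to 12 list genes, and 131 to 490 in the libraries labelled KO (167, 160, 131 and 142 without replicates 1, 3, 4 and 5), with 3 to 11 list genes. Signs turned within these ranges: between labels untreated, TERF2IP -0.089 to 0.19, RTEL1 -0.012 to 0.57 and POT1 -0.12 to 0.028; between labels after IFNγ, ACD -0.16 to 0.037, RTEL1 -0.37 to 0.19, ATRX -0.094 to 0.063 and TERF1 -0.094 to 0.18. For IFNγ, RTEL1 ranged from -0.23 to 0.54 in WT clones, and in the libraries labelled KO RTEL1 from -0.31 to 0.086, TERF2IP from -0.13 to 0.15 and TINF2 from -0.043 to 0.31. For the difference between responses, TERF2 ranged from -0.015 to 0.056, RTEL1 from -0.61 to 0.18, TERF2IP from -0.071 to 0.20, ACD from -0.18 to 0.0095 and TINF2 from -0.16 to 0.20.

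As TPM the levels were 67.4 for ACD, 65.2 for ATRX, 58.3 for TINF2, 37.8 for TERF1, 35.1 for TERF2, 29.9 for TERF2IP, 13.5 for POT1, 6.84 for ZBTB48 and 0.596 for RTEL1 (2.42 CPM per kilobase of bases not shared), in the same order. Shrunken fold changes could not be fitted for the difference between responses, and TERT had no fitted value.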
